A study of Mus musculus with 2 samples.

Results

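Cytosolic ribosomal protein genes encode the proteins of the large and the small ribosomal subunit. They were followed here through immune cells of the pancreatic islets of NOD mice, an inbred strain that develops autoimmune diabetes without treatment. Members were all genes whose symbol begins with Rpl or Rps and a digit, with Rplp0, Rplp1, Rplp2 and Rpsa, leaving out 10 Rps6k kinase symbols and 16 symbols ending in -ps and a number. This gave 87 of the 27998 genes in the deposited gene list. Of these, 53 are large subunit symbols and 34 small subunit symbols. Within the 87, 9 are copies or near relatives of another member (Rpl3l, Rpl6l, Rpl7l1, Rpl10l, Rpl22l1, Rpl36al, Rpl39l, Rps27l and Rps27rt) and are described apart. Rps19bp1 matches the pattern but encodes a binding protein of Rps19 and is no ribosomal protein. Without the copies and Rps19bp1 77 members remain. Shares of UMIs and counts of members past the fold still draw on all 87, unless the 77 are named.

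The study compared female NOD/ShiLtJ mice at 7 weeks and at 12 weeks of age. Islet cells carrying CD45.1, a leukocyte surface protein, were sorted and profiled with droplet 3' single-cell RNA sequencing, with 1 library per age. The mice received no treatment that the labels name, and the number of mice pooled into a library is not given in the sources used here. Because an age is 1 library, the ages could not be tested against each other. Classes were compared within each of the 2 libraries, and no test was run on them. Each interval covers counting error only.

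A ribosome holds most of its proteins in equal number, and their messenger RNAs are among the most abundant in a lymphocyte. Most of these messenger RNAs start with a run of pyrimidines, the 5' terminal oligopyrimidine (TOP) motif, through which mTOR and the binding protein Larp1 adjust their translation together. Resting T cells hold much of this RNA in store. On activation they grow, build ribosomes and turn on many other genes. The level of a messenger RNA in the data below is not the amount of ribosome.

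The Rps27 genes carry the clearest difference between members in what follows, so their coding sequences are shown, without the stop codon, 5' to 3' on the coding strand and from the reference annotation on build GRCm38. Capitals mark the 60 of 252 bases at which Rps27 and Rps27l differ. The transcript of Rps27 lies at chr3:90212671-90213651 (minus strand, 4 exons) and that of Rps27l at chr9:66946086-66949512 (plus strand, 4 exons).
Rps27: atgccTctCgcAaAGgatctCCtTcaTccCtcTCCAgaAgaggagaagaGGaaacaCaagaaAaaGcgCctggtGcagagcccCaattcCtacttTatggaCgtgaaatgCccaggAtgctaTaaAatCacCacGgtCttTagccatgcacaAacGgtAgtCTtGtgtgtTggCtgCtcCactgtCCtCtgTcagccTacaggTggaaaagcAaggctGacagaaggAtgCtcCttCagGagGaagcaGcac
Rps27l: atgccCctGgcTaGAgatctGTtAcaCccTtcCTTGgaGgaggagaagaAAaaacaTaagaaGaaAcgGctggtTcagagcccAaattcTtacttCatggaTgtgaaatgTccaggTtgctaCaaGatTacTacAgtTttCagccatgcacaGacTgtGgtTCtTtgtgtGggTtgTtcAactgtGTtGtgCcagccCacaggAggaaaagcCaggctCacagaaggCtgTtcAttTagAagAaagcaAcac

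Rps27rt, at chr9:114982366-114982739 on the minus strand, has 1 exon, and its coding sequence differed from that of Rps27 at 0 of 252 bases. Reads from the coding part of these genes therefore cannot be told apart, and the division of UMIs between Rps27 and Rps27rt is uncertain. Rps27l was 76.2% identical to Rps27 over the coding bases, and Rpl36al was 87.7% identical to Rpl36a over 318 bases. Reads from the coding part of these relatives can be told apart.

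The windows around the start of transcription hold a pyrimidine run in these genes. Windows from 10 bases before the start to 20 bases from it (RefSeq starts, build GRCm38.p6) are printed 5' to 3' with each run of a C followed by 4 or more C or T bases in capitals. They lie at chr3:90213629-90213658 (minus strand) for Rps27, chr9:114982720-114982749 (minus strand) for Rps27rt and chr9:66946076-66946105 (plus strand) for Rps27l.
Rps27: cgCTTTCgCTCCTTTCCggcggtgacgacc
Rps27rt: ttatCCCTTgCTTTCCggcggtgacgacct
Rps27l: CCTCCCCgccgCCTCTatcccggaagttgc
A run on the gene's own strand was present in 44 of the 66 members with a start in the table (66.7%), against 10698 of 27025 genes (39.6%). On the opposite strand it was present in 27.3% of the members and 44.5% of all genes. The other 21 members are not in the table, and Rps27l has a second listed start without a run. In Rps27 and Rps27rt the start itself lies in a run, and in Rps27l it does not. A match describes these letters only.

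Cells were sorted into 6 classes by their UMIs (unique molecular identifiers, each standing for 1 captured transcript). CD8 T cells had at least 2 UMIs of Cd8a and Cd8b1 and none of Cd4. They were called naive-like with at most 3 UMIs of Ccl5, a chemokine of effector cells, and effector with at least 10. CD4 T cells had a Cd4 UMI and no Cd8 UMI, and B cells at least 2 UMIs of Cd79a, a part of the B cell receptor. Cycling cells had at least 5 UMIs over 15 genes of DNA replication and mitosis, whatever their lineage, and left the other classes. Myeloid cells had at least 5 UMIs over 13 macrophage and dendritic cell genes, none of the Cd3 genes and fewer than 2 of Cd79a, with a limit on Siglech, a gene of plasmacytoid dendritic cells. A gene's level is given in CPM, its UMIs scaled to 1000000 UMIs of the class. Since a UMI counts a transcript and not its length, levels were not divided by length.

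After filtering, 1099 cells at 7 weeks and 2741 at 12 weeks remained, with medians of 5636 and 4935 UMIs. The libraries shared 2 barcodes. Cells in no class numbered 332 and 600, those with more than 1 lineage 12 and 45, and CD8 T cells between the Ccl5 limits 8 and 18. Markers were counted in each class, some of them genes of the gates themselves. Cd79b had a UMI in 94.6% and 97.8% of B cells and in 5.23% to 16.9% of cells of the CD4 T and CD8 T classes. Lef1, a transcription factor of naive T cells, had one in 60.6% and 77.4% of naive-like and 27.7% and 22.2% of effector CD8 T cells, although Nkg7, a cytotoxic granule gene, had one in 88.7% and 90.3% of naive-like cells. Csf1r, the receptor that macrophages depend on, had one in 50% and 36.6% of myeloid cells, and Cd3e in 0%. Csf1r is among the genes of the myeloid gate, and that gate fixes the value of Cd3e. Cd79b had a UMI in 21.4% and 16.1% of myeloid cells. Mki67, a proliferation marker and a gene of the cycling gate, had one in 72.8% and 74.8% of cycling cells. Values of gate genes follow from the gates and are no check of the class. The naive-like gate also held 3 and 7 cells without any Cd3 UMI, with a ribosomal protein share of 18.4% and 19.2%. In this class 4 genes of plasmacytoid dendritic cells held 6.4 and 9.74 UMIs per 10000, against 1.72 and 1.1 in effector cells. Without the cells lacking Cd3 the naive-like share was 39.8% and 41.8%. The myeloid class was small, with 28 cells at 7 weeks and 93 at 12 weeks.

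Ribosomal protein genes supplied 31.8% of all UMIs at either age, and the share was highest in naive-like CD8 T cells and lowest in myeloid cells at both ages. The lowest place depended on depth. The median cycling and myeloid cells held 17102 and 9233.5 UMIs at 7 weeks, and among cells of 3000 to 7000 UMIs cycling cells lay further below CD4 T cells than myeloid cells did at that age (-10.3 against -6.15 points, 9 cells of either class). Summed over cells, naive-like CD8 T cells gave 38.6% of their UMIs to these genes at 7 weeks (95% interval 38.47 to 38.76, 71 cells) and 40.9% at 12 weeks (40.78 to 40.96, 217 cells). B cells followed with 37.4% (37.30 to 37.49, 166 cells) and 35.5% (35.45 to 35.55, 637 cells). Between B cells and the cycling class stood CD4 T and effector CD8 T cells, which changed places between the ages. CD4 T cells gave 31.8% (31.78 to 31.90, 325 cells) and 33.5% (33.44 to 33.53, 767 cells), and effector CD8 T cells 32.7% (32.56 to 32.84, 65 cells) and 31.9% (31.86 to 32.04, 162 cells). Cycling cells gave 29.1% (29.04 to 29.17, 92 cells) and 27.9% (27.89 to 27.98, 202 cells). Myeloid cells gave 25.2% (25.02 to 25.34, 28 cells) and 21.4% (21.27 to 21.44, 93 cells).

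Single cells of a class spread far more widely than these counting intervals. Among effector CD8 T cells at 7 weeks the interquartile range was 24.4% to 38.2%, and among naive-like cells 33.8% to 43.9%. The interquartile ranges of these classes thus overlapped at 7 weeks. They did not at 12 weeks, where they ran from 38.2% to 46.3% in naive-like and from 25.8% to 36.5% in effector cells.

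**Figure D1:**
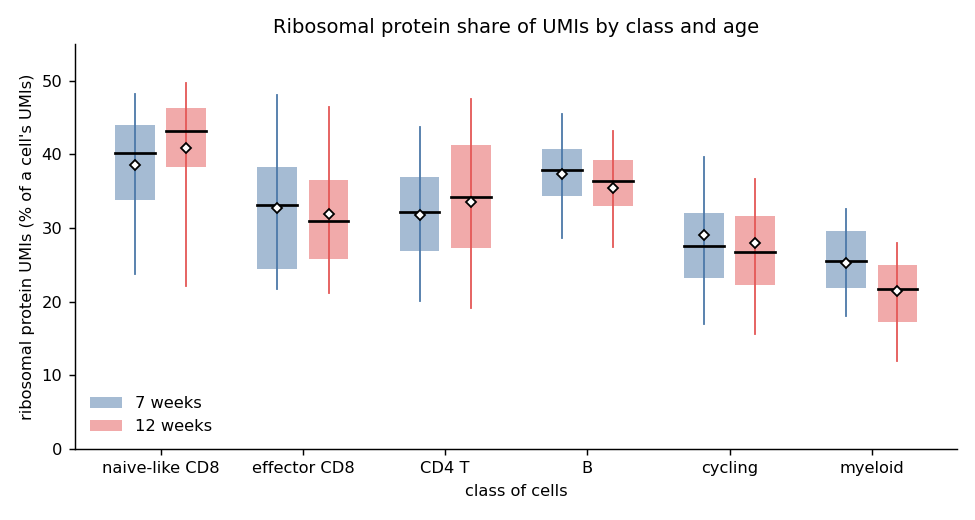
Share of each cell's UMIs on the 87 ribosomal protein genes, in percent, by class (horizontal) and age (color). Boxes span the interquartile range, lines the 5th to 95th percentile, black bars the median cell and diamonds the share of the summed UMIs; the median cell falls from 43.1% in naive-like CD8 T cells to 21.7% in myeloid cells at 12 weeks.

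Effector CD8 T cells gave less of their RNA to ribosomal proteins than naive-like CD8 T cells at both ages. The difference was -5.92 percentage points at 7 weeks (counting interval -6.13 to -5.72) and -8.92 at 12 weeks (-9.05 to -8.80). In the median cell it was -7.16 and -12.2 points. The number of ribosomal protein UMIs per cell differed less than the share. The median cell held 2126 of them in the naive-like and 1946 in the effector class at 7 weeks, and 2099 and 1764.5 at 12 weeks, while UMIs of all other genes went from 3227 to 4087 and from 2802 to 3644.5.

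The share was lowest in the cells with the most Ccl5. CD8 T cells with 50 or more Ccl5 UMIs gave 31.1% at 7 weeks (48 cells) and 30.1% at 12 weeks (118 cells). With 10 to 49 UMIs the share was 37.6% (17 cells) and 36.3% (44 cells), and with 4 to 9 UMIs 39.1% and 37.8%. With 1 to 3 UMIs it was 39.7% (33 cells) and 39.4% (84 cells), and with 0 UMIs 37.4% (38 cells) and 41.9% (133 cells). At 12 weeks the share thus fell with each higher range of Ccl5, and at 7 weeks only the highest range lay below the cells with 0.

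Regulatory T cells are marked by Foxp3. Among the 322 and 764 CD4 T cells with a Cd3 UMI, those with a Foxp3 UMI gave 26.1% at 7 weeks (41 cells) and 28.9% at 12 weeks (51 cells). Those without one gave 33.0% (281 cells) and 34.0% (713 cells), above the Foxp3-bearing cells at both ages.

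**Figure D2:**
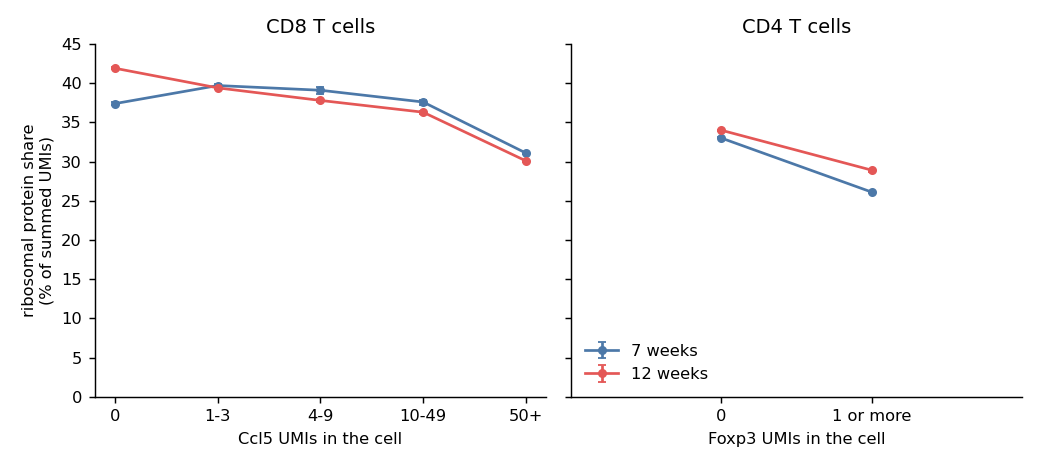
Ribosomal protein share of summed UMIs, in percent, of CD8 T cells by their Ccl5 UMIs (left) and of CD4 T cells with a Cd3 UMI by their Foxp3 UMIs (right), at 7 weeks (blue) and 12 weeks (red); bars are 95% counting intervals and mostly smaller than the points. At 12 weeks the share runs from 41.9% to 30.1% on the left and is 34.0% without and 28.9% with a Foxp3 UMI on the right.

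Within the effector to naive-like comparison, members moved mostly together, with a few that stood apart. A member was counted as lower or higher when the higher CPM exceeded the lower by more than 25% in the same direction in both libraries (the fold in what follows), among genes with at least 50 UMIs over the 2 classes in each library. The levels of Rpl3l, Rpl10l and Rpl39l (35 UMIs or fewer each in all cells), Rpl7l1 and Rps19bp1 were too low here, so 82 members were compared. By this rule 21 were lower and 0 higher in effector cells, while of the 2002 genes compared 6.34% were lower and 18% higher. Without the copies and Rps19bp1, 20 of 77 were lower and 0 higher. Over all 82, the median member differed by -0.23 on the log2 scale at 7 weeks and -0.36 at 12 weeks. All genes stood at 0.07 and 0.15, and 73 members were below 1 at both ages. Scaled to the UMIs of all other genes, which takes the members' own sum out of the scale, 52 members were lower and 0 higher. This scale shifts the ratios of all genes alike. With cycling cells left in the classes 37 were lower and 1 higher, and in cells of 3000 to 7000 UMIs 35 and 1, the higher one being Rps27l in both. At a fold of 1.5 Rpl31 alone was lower. For these alternatives the share of all genes past the fold was not counted. Leaving out the cells without a Cd3 UMI, the difference in share was -7.11 and -9.88 points.

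Among the 77 members without copies and Rps19bp1, small subunit members were lower somewhat more often, 11 of 31 against 9 of 46 of the large subunit. Their medians were -0.30 and -0.20 at 7 weeks and -0.42 and -0.27 at 12 weeks. Rps19, which is needed to mature the small subunit, stood at 4846 CPM in effector and 6889 in naive-like cells at 7 weeks and at 4861 and 8098 at 12 weeks. Its ratio was 0.704 (0.665 to 0.744) and 0.600 (0.579 to 0.622), among the lowest of all members. Rpl31, a protein near the exit tunnel of the large subunit, had 2522 against 3800 CPM and 2563 against 4177, ratios of 0.664 and 0.614. Next came Rps20 (0.694 and 0.651), Rps25 (0.689 and 0.665) and Rps29 (0.731 and 0.648). All 5 were lower at both ages, and no interval reached 1.

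At the other end, several members, most of them of the large subunit, differed little in CPM. Rpl27 had 3070 CPM in effector and 2773 in naive-like cells at 7 weeks, a ratio of 1.11 (1.02 to 1.20), and 2552 against 2635 at 12 weeks, a ratio of 0.968 (0.918 to 1.02). Rpl13a, known also as a regulator of inflammatory transcripts in macrophages, had ratios of 1.09 and 0.926, Rpl37a 1.01 and 0.941, Rps13 1.05 and 0.922, and Rpl36al 1.04 and 0.945. None of these passed the fold. At 12 weeks the intervals of Rpl13a (0.901 to 0.951), Rpl37a (0.906 to 0.976) and Rps13 (0.885 to 0.961) lay below equal levels. That of Rpl13a at 7 weeks (1.05 to 1.14) lay above. Rpl36a, the relative of Rpl36al, was lower in effector cells, with ratios of 0.709 (0.650 to 0.773) and 0.723 (0.685 to 0.763).

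**Figure D3:**
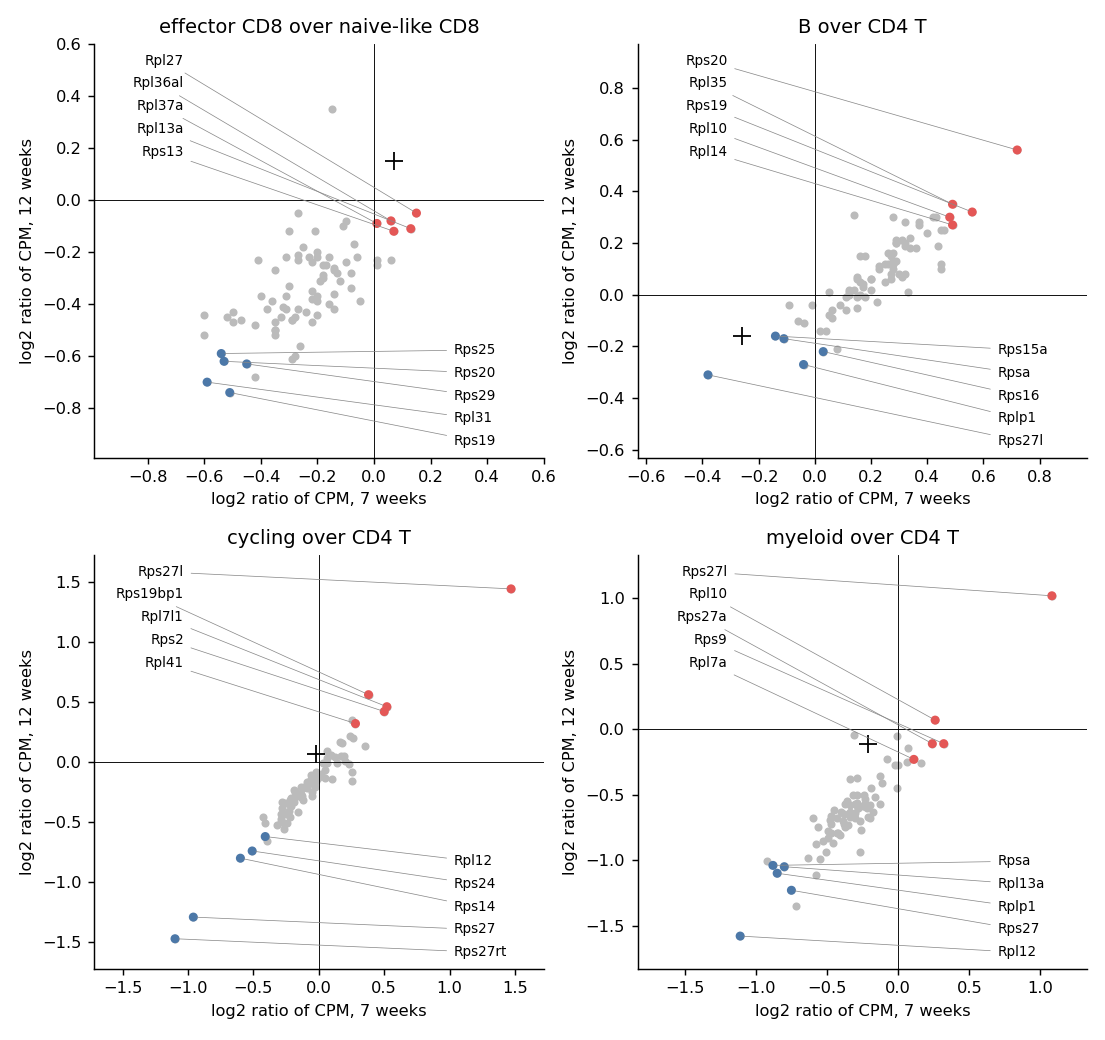
Log2 ratio of CPM of each member between classes at 7 weeks (horizontal) and 12 weeks (vertical), in 4 comparisons. Gray points are members, blue and red the 5 named as lowest and highest relative to the median member, and the cross is the median of all genes compared; Rps27l lies apart at the upper right against CD4 T cells in cycling and in myeloid cells.

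Other genes of translation were counted in the same way. Of 17 translation factors and other TOP genes 3 were lower in effector cells and 0 higher, where 6.34% of all genes were lower, with medians of -0.14 and -0.05. Eef1a1, the factor that brings aminoacyl-tRNA to the ribosome, had ratios of 0.906 (0.864 to 0.950) and 0.925 (0.898 to 0.952). Tpt1 had ratios of 0.916 and 0.801, and Eef2, the factor of ribosome translocation, 1.02 and 1.05. Outside the name pattern, the ribosomal proteins Fau and Gnb2l1 (Rack1) had ratios from 0.842 to 1.01, and neither passed the fold. Of 34 ribosome biogenesis genes 11 had enough UMIs, of which 1 was lower and 1 higher. Nucleolin (Ncl) stood at 0.809 and 0.808. Of 77 mitochondrial ribosomal protein genes 32 had enough UMIs, with 0 lower and 4 higher, where 18% of all genes were higher. Of 15 regulators only Rheb, Eif4e and Maf1 had enough, and none passed the fold.

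B cells gave more of their UMIs to ribosomal proteins than CD4 T cells, by 5.55 points at 7 weeks (5.44 to 5.66) and by 2.01 points at 12 weeks (1.95 to 2.08). Few single members passed the fold. Of 84 members compared 2 were higher and 0 lower, while 11.1% of 5729 genes were higher and 29.9% lower. The median member was at 0.25 and 0.08, against -0.26 and -0.16 for all genes, and 62 members were above 1 at both ages. Scaled to the UMIs of all other genes 9 members were higher, and the share of all genes past the fold was not counted on that scale.

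Rps20 differed most, with 5855 CPM in B and 3545 in CD4 T cells at 7 weeks and 5698 and 3873 at 12 weeks, ratios of 1.65 (1.60 to 1.71) and 1.47 (1.44 to 1.5). Rpl35 was the second member past the fold, at 1.40 and 1.28. Rps19, with 7918 against 5354 CPM at 7 weeks and 8312 against 6675 at 12 weeks, Rpl10 (1.40 and 1.23) and Rpl14 (1.40 and 1.20) came next and did not pass the fold at 12 weeks. The members lowest in B relative to the others were Rps27l (0.769 and 0.804), Rpsa (0.924 and 0.887), Rps15a (0.909 and 0.894), Rplp1 (0.972 and 0.827) and Rps16 (1.02 and 0.861). Rpsa is a small subunit protein that also serves as a laminin receptor. The P stalk, the side arm of the large subunit that recruits elongation factors, made up 4.24% and 4.13% of the ribosomal protein UMIs of B cells against 5.05% and 4.95% in CD4 T cells. Of the other lists, Fau was higher in B cells (1.37 and 1.29) and Tpt1 stood at 0.817 and 0.726.

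The B cells richest in Jchain had far lower shares. Those with 10 or more UMIs of Jchain, a gene of antibody-secreting cells, gave 25.9% at 7 weeks (4 cells) and 21.6% at 12 weeks (19 cells). The remaining B cells gave 38.4% (162 cells) and 36.5% (618 cells). Without the Jchain-rich cells the difference from CD4 T cells was 6.52 and 3.02 points, and 7 members were higher and Rps27l was lower. This limit was chosen after the data were seen, and the share of all genes past the fold was not counted for it.

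Cycling cells had a lower share than CD4 T cells but more ribosomal protein UMIs per cell. The difference in share was -2.74 points at 7 weeks (-2.83 to -2.65) and -5.55 at 12 weeks (-5.62 to -5.49). The median cycling cell held 4587.5 and 4000 ribosomal protein UMIs, against 1834 and 1621 in the median CD4 T cell. It also held more UMIs in all, 17102 and 15696 against 5602 and 4536. In the cycling cells of 3000 to 7000 UMIs (9 and 20 cells) the difference in share was -10.3 and -11.7 points. Cycling CD4 T cells gave 29.9% (34 cells) and 30.1% (56 cells), cycling CD8 T cells 28.7% (30 cells) and 26.5% (68 cells), and cycling B cells 26.7% (7 cells) and 29.9% (15 cells).

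Of 84 members 8 were lower and 4 higher in cycling than in CD4 T cells, where 22.2% of 6575 genes were lower and 25.9% higher. Scaled to the UMIs of all other genes 16 were lower and 3 higher (Rps27l, Rpl7l1 and Rps19bp1). In cells of 3000 to 7000 UMIs (9 and 20 cycling cells) 61 were lower and Rps27l alone was higher. In neither setting was the share of all genes past the fold counted. Without the copies and Rps19bp1, and with no limit on depth, 7 of 77 were lower and 1 higher.

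Rps27 and Rps27l went in opposite directions, which is why their sequences are shown above. Rps27, the member with the most UMIs in all cells, stood at 5338 CPM in cycling against 10375 in CD4 T cells at 7 weeks and at 4128 against 10067 at 12 weeks. These are ratios of 0.515 (0.502 to 0.527) and 0.410 (0.402 to 0.418). Rps27rt, with the same coding sequence, was at 0.466 and 0.361. Rps27l, a known target of the tumor suppressor p53, stood at 587 against 212 CPM and at 561 against 207. It was higher in cycling cells by 2.77-fold (2.48 to 3.09) and 2.71-fold (2.50 to 2.94), and by 0.47 and 1.31 on the log2 scale in cells of 3000 to 7000 UMIs.

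Other members moved less. Rps14 (0.659 and 0.573), Rps24 (0.701 and 0.601), Rpl12 (0.751 and 0.651), Rps15a, Rps29 and Rpl17 were also lower. Rps2 was higher at 1.41 and 1.34, as were the biogenesis protein Rpl7l1 (1.44 and 1.38) and Rps19bp1 (1.3 and 1.48), whose interval at 7 weeks held 1. Rpl41, one of the shortest proteins known, stood at 9282 against 7642 CPM and 7927 against 6333 and did not pass the fold. In cells of 3000 to 7000 UMIs Rps2 turned to -0.39 and -0.13 on the log2 scale, Rpl7l1 to -0.44 and -0.15, Rps19bp1 at 12 weeks to -0.97 and Rpl41 at 12 weeks to -0.16. Rps27l was the one member past the fold upward both in all cells and in that window.

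Genes that build ribosomes were mostly higher in cycling cells. Of 34 biogenesis genes 32 had enough UMIs, and 24 were higher in cycling cells and 0 lower, with medians of 0.72 and 0.70 on the log2 scale. Ncl stood at 1018 against 442 CPM at 7 weeks and 1027 against 532 at 12 weeks, ratios of 2.31 (2.13 to 2.49) and 1.93 (1.83 to 2.04). Polr1d (1.02 and 1.07) and Nop10 (1.18 and 1.02) did not pass the fold. Of the mitochondrial ribosomal protein genes 51 of 74 were higher and 0 lower, with medians of 0.53 and 0.54. Of all genes 25.9% were higher and 22.2% lower. Translation factors stayed below both shares, with 3 of 17 higher and 2 lower, and Tpt1 was lower at 0.658 and 0.625. Regulators were near these shares, with 3 of 10 higher and 2 lower. Eif4e, the cap-binding protein, was higher (1.33 and 1.42), and Maf1, a repressor of RNA polymerase III, lower (0.713 and 0.616). At 7 weeks cycling cells also held 100 haemoglobin UMIs per 10000, against 0.217 at 12 weeks and 0.327 in CD4 T cells at 7 weeks, and the part of these in the result was not tested.

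Myeloid cells had a lower share than CD4 T cells and many members past the fold. The share was below that of CD4 T cells by -6.66 points at 7 weeks (-6.83 to -6.49) and by -12.1 points at 12 weeks (-12.2 to -12.0). Of 84 members 40 were lower and 1 higher, where 28.4% of 5071 genes were lower and 17.4% higher. Without the copies and Rps19bp1, 37 of 77 were lower and 0 higher. Over all 84, the median member stood at -0.31 and -0.63, against -0.21 and -0.11 for all genes. In cells of 3000 to 7000 UMIs (9 and 28 myeloid cells) the counts were 29 and 1, fewer than the 61 lower in cycling cells there (9 and 20 cells). At a fold of 1.5 they were 9 and 1, and scaled to the UMIs of all other genes 65 and 1. For these alternatives the share of all genes past the fold was not counted.

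Rpl12, whose protein lies at the base of the P stalk, differed most, with 1646 CPM in myeloid and 3563 in CD4 T cells at 7 weeks and 1302 and 3897 at 12 weeks. Its ratio was 0.462 (0.420 to 0.507) and 0.334 (0.315 to 0.354). The stalk proteins themselves were all lower. Rplp1 stood at 0.556 and 0.465, Rplp2 at 0.720 and 0.580, and Rplp0, which anchors them, at 0.771 and 0.639. Rpsa (0.543 and 0.487), Rpl13a (0.574 and 0.483) and Rps27 (0.595 and 0.425) were lower too.

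Rps27l was again the exception, at 450 against 212 CPM and 421 against 207, higher by 2.12-fold (1.73 to 2.58) and 2.03-fold (1.80 to 2.29). Next came Rpl10 (1.20 and 1.05), Rps9 (5123 against 4093 CPM and 4235 against 4575), Rps27a, which is made as a fusion with ubiquitin (1.18 and 0.930), and Rpl7a (1.08 and 0.855). None of these passed the fold in both libraries. Biogenesis genes counted 7 lower and 2 higher of 25, near and below the shares of all genes (28.4% lower and 17.4% higher). Ncl stood at 0.744 and 0.561. Eef2 (0.775 and 0.667) and Tpt1 (0.612 and 0.495) were lower. At 12 weeks the myeloid class held 112 UMIs of 8 endocrine genes per 10000, against 0.857 at 7 weeks, and CD4 T cells 18.4 against 0.432. Of 12 acinar genes there were 0.165 to 2.73 in every class. Their part in the ratios was not tested.

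The copies differed between classes in their share of the UMIs of the gene family. Rps27l made up 1.01% and 1.09% of the UMIs of Rps27, Rps27rt and Rps27l in naive-like CD8 T cells, 1.10% and 2.04% in effector CD8 T cells, 1.55% and 1.67% in CD4 T cells and 0.941% and 1.27% in B cells. In myeloid cells it made up 5.27% (4.41 to 6.25, 126 UMIs) and 7.60% (6.89 to 8.36, 390 UMIs), and in cycling cells 7.95% (7.5 to 8.42) and 10.3% (9.86 to 10.7). The intervals of these classes did not reach those of the other 4. By lineage it was 9.69% and 11.4% in cycling CD8 T cells, 4.64% and 6.81% in cycling CD4 T cells and 8.56% and 15.2% in cycling B cells. A few cells gave much of this. The 5 cells with the most Rps27l held 31.9% and 14.6% of its UMIs in the cycling class and 41.3% and 24.6% in the myeloid class. They held 54.6% and 27.8% in cycling CD8 T cells, 40.6% and 27.6% in cycling CD4 T cells and 99.0% and 76.4% in cycling B cells. In cells of 3000 to 7000 UMIs the cycling class stood at 3.56% and 7.01% and CD4 T cells at 1.13% and 1.19%.

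Rpl22l1, the relative of Rpl22, a member with its own part in T cell development, varied less and in another order. It made up 44.7% (42.1 to 47.3) and 45.5% (44.0 to 47.0) of the UMIs of the pair in naive-like CD8 T cells and 37.4% (34.7 to 40.2) and 41.1% (39.3 to 43.0) in effector cells. In CD4 T cells it was 35.8% and 40.6%, in B cells 40.5% and 41.2% and in cycling cells 42.2% and 42.7%. Myeloid cells were lowest with 30.3% (26.7 to 34.0) and 32.3% (30.1 to 34.6). Rpl22l1 itself was lower in effector than in naive-like CD8 T cells (0.705 and 0.741), while Rpl22 stood at 0.954 and 0.887.

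Rpl36al had its ends reversed, with 23.9% and 24.9% of the UMIs of Rpl36a and Rpl36al in naive-like CD8 T cells and 35.0% and 36.4% in myeloid cells. Effector cells gave 31.6% and 30.2%, CD4 T cells 30.5% and 28.9% and B cells 25.8% and 25.8%. Cycling cells (32.3% and 31.6%) came second highest, as for Rpl22l1. Rpl36al itself stood at 868 and 828 CPM in myeloid and 916 and 1009 in naive-like cells. Rpl36a differed more, at 1610 and 1448 against 2919 and 3044. Rpl7l1 held between 1.26% and 3.51% of the UMIs of Rpl7 and Rpl7l1 in every class. Rpl10l, a testis gene, had 1 UMI in all cells, Rpl3l, a gene of heart and skeletal muscle, 31, and Rpl39l 35.

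**Figure D4:**
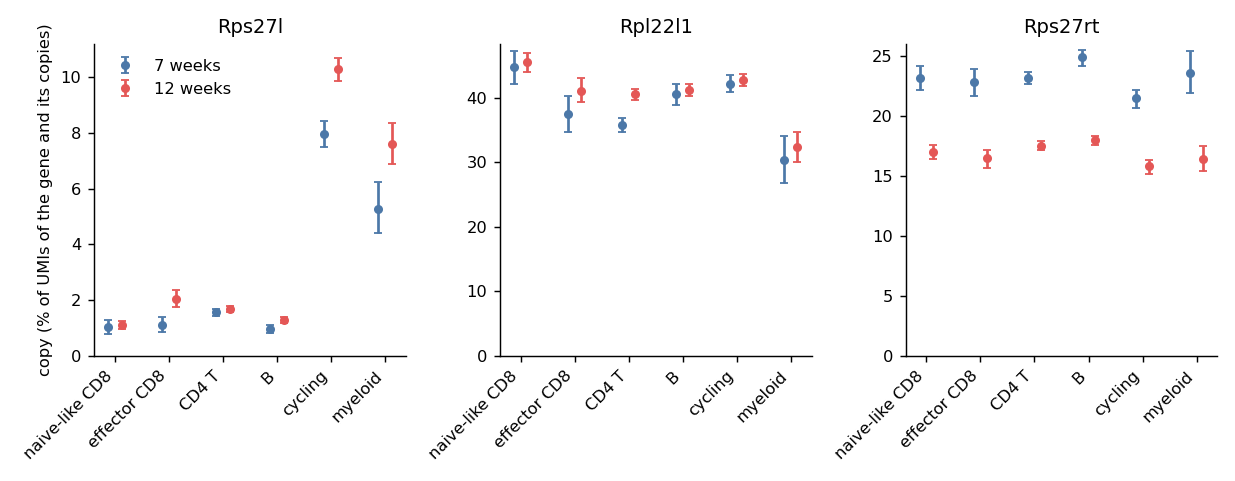
Share of Rps27l among the UMIs of the Rps27 genes (left), of Rpl22l1 among those of Rpl22 and Rpl22l1 (middle) and of Rps27rt among those of Rps27 and Rps27rt (right), in percent, by class at 7 weeks (blue) and 12 weeks (red), with 95% counting intervals. Rps27l is at 5.27% to 10.3% in cycling and myeloid cells and at 2.04% or less elsewhere; Rps27rt is lower at 12 weeks in all 6 classes.

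Between members, levels differed widely within a class. Over the 77 members, the median in CD4 T cells stood at 3765 CPM at 7 weeks and 4006 at 12 weeks, and the highest, Rps27, at 10375 and 10067. Over all classes the highest member exceeded the median member by 2.14-fold to 2.78-fold. The members with the most UMIs over all cells were Rps27 (235054), Rpl13a (214173), Rps29 (207612), Rpl41 (197090) and Rps14 (184981). Large subunit genes supplied 52.8% to 56.0% of the ribosomal protein UMIs in every class, with the highest values in cycling cells (56.0% and 55.9%) and the lowest in naive-like CD8 T cells (52.9% and 52.8%). Of the 87 members 80 had over 10000 UMIs over all cells.

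With age, the ribosomal protein share moved in different directions by class. From 7 to 12 weeks it was higher by 2.25 points in naive-like CD8 T cells (2.08 to 2.42) and by 1.65 in CD4 T cells (1.57 to 1.72). It changed by -0.748 in effector CD8 T cells (-0.917 to -0.578), by -1.89 in B cells (-2 to -1.78), by -1.17 in cycling cells and by -3.83 in myeloid cells (-4.01 to -3.64). In cells of 3000 to 7000 UMIs the cycling value was 1.02, the effector value -0.393 and the B cell value -1.2. The last was -1.08 with cycling cells left in their class. Stricter gates asked for no Ccl5 UMI in naive-like and at least 20 in effector cells. They asked for at least 5 Cd79a UMIs in B cells and a Cd3 UMI in CD4 T cells. Cycling and myeloid cells needed at least 10 UMIs of their genes. Cells with fewer cycling UMIs then joined their lineage class, and CD4 T cells went from 325 to 332 and from 767 to 776. With these gates the naive-like value was 4.14 and the effector value -0.375. Within the naive-like class, cells with 0 Ccl5 UMIs went from 37.4% to 41.9%, and those with 1 to 3 from 39.7% (33 cells) to 39.4% (84 cells). Within the cycling class, the share was lower at 12 weeks in CD8 T cells (28.7% and 26.5%), near equal in CD4 T cells (29.9% and 30.1%) and higher in B cells (26.7% and 29.9%).

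A few members were lower at 12 weeks in every class, while others differed between classes. Of 84 members 49 lay on the same side of the median member in all 4 lymphocyte classes, 26 below it and 23 above. Rps24, for example, stood at 0.26 on the log2 scale in naive-like CD8 T, -0.07 in effector CD8 T and -0.24 in myeloid cells. Past the same fold between the ages, naive-like CD8 T cells had 6 members lower and 2 higher at 12 weeks (all genes 18.7% and 21.5%), effector CD8 T cells 9 and 1 (14.8% and 25.5%), and CD4 T cells 5 and 2 (19.6% and 13.7%). B cells had 8 lower and 1 higher (15.3% and 24.9%), cycling cells 10 and 0 (15.5% and 21%), and myeloid cells 24 and 1 (19.4% and 31.6%). In the 5 classes other than myeloid, the members' share past the fold was below the percent of all genes in both directions. The genes called lower recurred, and Rpl29, Rpl6l, Rps27rt, Rpl15 and Rpl35 were lower in all 6 classes. Of these, Rpl6l and Rps27rt are copies. The members lower in naive-like CD8 T cells also include Rps19bp1, which is no ribosomal protein.

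Rpl29 differed most. It stood at 211 CPM at 7 weeks and 104 at 12 weeks in CD4 T cells and at 225 and 101 in B cells. These are -1.02 and -1.16 on the log2 scale, and the other 4 classes lay between -1.70 and -1.33. Rpl29 had only 3582 UMIs in all cells, the fewest of the 77 members. The median of the 77 in CD4 T cells was 3765 CPM at 7 weeks and 4006 at 12 weeks. Why so few UMIs fell on Rpl29, and whether this shaped its ratio, was not tested. Rpl6l was at -0.84 in CD4 T and -1.09 in B cells, and Rps27rt at -0.55 and -0.88. Rps27rt made up 23.2% of the UMIs of Rps27 and Rps27rt in CD4 T cells at 7 weeks (22.7 to 23.7) and 17.5% at 12 weeks (17.2 to 17.9), and its share was lower at 12 weeks in all 6 classes. Rpl6l went from 21.1% to 12.6% of the UMIs of Rpl6 and Rpl6l in CD4 T cells. Symbols ending in -ps, which are no members and by their names mark pseudogenes, held 10637 CPM at 7 weeks and 5226 at 12 weeks. Since each age is 1 library, age and library cannot be told apart. At the upper end, Rpl14 was at 0.35 in CD4 T and 0.13 in B cells, Rpl3 at 0.21 and 0.08, and Rpl7l1 at 0.22 and 0.39. Rpl7l1 had few UMIs. The interval of its ratio held 1 in CD4 T (0.95 to 1.44) and effector CD8 T cells (0.698 to 1.8). In B (1.01 to 1.73) and naive-like CD8 T cells (1.01 to 2.99) it began just above 1.

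The age ratio of a member went with its coding length. In B cells the 6 compared members with under 250 coding bases had a median log2 ratio of -0.37, the 23 with 250 to under 400 bases -0.07, the 31 with 400 to under 600 bases 0.01 and the 23 longer ones 0.04. In CD4 T cells the same groups stood at -0.23, 0.08, 0.13 and 0.15. The shortest group holds Rpl38, Rpl39, Rpl41, Rps21, Rps28 and Rps29. Spearman's rho between coding length and ratio was 0.54 in B and 0.40 in CD4 T cells over 83 members, given as a description across genes that share their libraries. Over other genes with at least 500 UMIs it was 0.08 (865 genes) and 0.04 (1446 genes). The other genes with under 250 coding bases had medians of 0.01 in B and -0.04 in CD4 T cells. The cause was not tested.

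**Figure D5:**
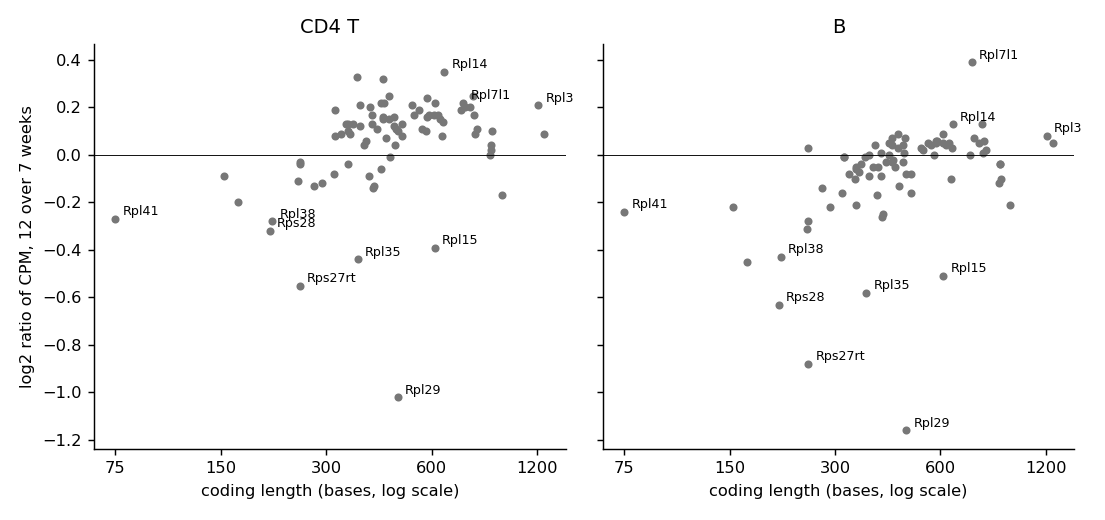
Log2 ratio of CPM, 12 over 7 weeks, of each member (vertical) against its coding length in bases (horizontal, log scale) in CD4 T cells (left) and B cells (right); each point is a member. Members with short coding sequences such as Rpl38 and Rps28 lie below 0 in both, as do Rpl29, Rpl35 and Rpl15, and Rpl29 is lowest at -1.02 and -1.16.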

How the data were processed

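Per the labels' protocols, CD45.1+ cells sorted from islets of female NOD mice were profiled with the 10x Genomics 3' kit, 1 library at each of 7 and 12 weeks. The authors deposited whole-number counts (UMIs) per gene and barcode, not normalized. The submitters' processing notes list Cell Ranger 1.3.1 and mm10. The annotation used for counting is not given in the sources used here, so reads shared by near-identical copies may be split unequally.

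The matrices held 1113 barcodes with 8701184 UMIs and 2812 with 19288252. Barcodes with under 200 genes or over 10% mitochondrial UMIs were removed (4 and 8), then those with the highest doublet scores (2 simulated doublets per barcode, exact neighbours), at a rate rising with the number of barcodes (10 and 63). UMIs were summed per class and library. Shares carry exact Clopper-Pearson 95% intervals, differences of shares Newcombe intervals and CPM ratios exact conditional binomial intervals. All cover counting error only, and UMIs within a cell are not independent. The fold rule needed 50 UMIs over both classes in each library. It was tried on simulated independent counts without spread between cells, which cannot give its error in these data.

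The named genes were the 5 members with the most UMIs, the copies with their parents and the P stalk, and in each class comparison the 5 highest and 5 lowest relative to the median member on the same side in both libraries. For age they were the 3 highest and 3 lowest over the 4 lymphocyte classes on the same side of the median member. The 3 genes with the most UMIs were named from the lists of translation factors, biogenesis and regulators. Rpl17, Rps24 with age, Rps15a, Rps29, Rpl15, Rpl35, Rpl38 and the other short members were named after their values were seen. The members and lists were chosen with earlier results of these data known. Some listed genes, and a split of CD4 T cells that used one, are not reported here. Lists of acinar, endocrine and red cell genes, 12, 8 and 4 genes, were summed per class. Coding lengths and coding sequences are those of GENCODE vM21 basic (Rpl6l has none there), and starts those of RefSeq. Python 3.11.15, numpy 2.4.6, scipy 1.17.1, pandas 2.3.3, scikit-learn 1.9.0 and matplotlib 3.10.9 were used.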

Additional observations from a re-analysis of the deposited data

Results flagged for a closer look

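The ribosomal protein share of UMIs moved in opposite directions between the ages by class. It was higher at 12 weeks by 2.25 percentage points in naive-like CD8 T cells and by 1.65 points in CD4 T cells. In effector CD8 T cells, B cells, cycling cells and myeloid cells it changed by -0.748, -1.89, -1.17 and -3.83 points. The difference between classes was not tested, because each age is 1 library.

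Symbols ending in -ps, which the comparisons did not use, held 10637 CPM in the 7 week library and 5226 in the 12 week library. Of these 16 symbols 15 had over 3 UMIs in either library, so the signal is above the limit that a count of 0 allows. The cause of the gap was not tested.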

How the results depend on the processing

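Of 84 recomputed differences in ribosomal protein share 33 moved by less than the counting error, 50 moved by more and 1 changed sign. The settings for Cd3 and Jchain each altered only some classes, so part of these 33 could not move. Of 72 recomputed counts of members 51 stayed within 1.5 times, and part of these could not move either. For the recomputed counts the share of all genes past the fold was not counted. Pairs of values are 7 and then 12 weeks.

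In cells of 3000 to 7000 UMIs the share of effector minus naive-like CD8 T cells was -7.04 and -10.7 points, B minus CD4 T 5.01 and 1.44, cycling minus CD4 T -10.3 and -11.7, and myeloid minus CD4 T -6.15 and -14.1. The age differences there were 3.27 in naive-like CD8, -0.393 in effector CD8, 2.37 in CD4 T, -1.2 in B and -5.57 in myeloid cells, and 1.02 in cycling cells, where the sign changed. Members lower and higher numbered 35 and 1 in effector and 61 and 1 in cycling cells, and 1 was lower in B cells. Log2 ratios of cycling over CD4 T changed sign for Rps2 (-0.39 and -0.13), Rpl7l1 (-0.44 and -0.15), Rps19bp1 (-0.97 at 12 weeks) and Rpl41 (-0.16 at 12 weeks). That window held only 9 and 20 cycling cells.

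With cycling cells left in their class, the differences were -7.53 and -10.5 for effector minus naive-like, 4.59 for B minus CD4 T at 7 weeks, -2.33 and -4.92 for cycling and -6.02 and -11.6 for myeloid minus CD4 T, and -1.08 in B, 1.43 in CD4 T and -4.15 in myeloid cells with age. In effector cells 37 members were lower and 1 higher. With stricter gates they were -6.38 and -10.9, 5.44 and 2.17, -3.26 and -6.01, and -6.89 and -12, in the same order, and with age 4.14 in naive-like CD8, -0.375 in effector CD8, -1.57 in B, -1.06 in cycling and -3.4 in myeloid cells, and 1 member was lower in B cells. Without doublet removal they were -9.15 for effector at 12 weeks, -2.64 and -5.44 for cycling and -11.9 for myeloid at 12 weeks, and with age -1.01 in effector CD8 and -3.6 in myeloid cells, and 1 member was lower in B cells.

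Alternatives chosen after seeing the data were T cells with a Cd3 UMI (effector -7.11 and -9.88, cycling -2.84 and -5.63, B at 12 weeks 1.94, naive-like CD8 with age 2.02) and B cells under 10 Jchain UMIs (6.52 and 3.02, with 7 members higher and 1 lower). Scaled to the UMIs of all other genes 52 members were lower in effector, 16 in cycling and 65 in myeloid cells, and 9 higher in B cells. At a fold of 1.5 the counts lower were 1 in effector, 3 in cycling and 9 in myeloid cells, and those higher 1 in cycling and 0 in B cells. With a minimum of 1 UMI 2 members were lower in B cells, Rpl3l and Rpl39l. Beyond the settings' own construction, the cause was not tested.

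No paired analysis was possible because each age has 1 library, which concerns the age comparison. The class comparisons were made within each library and asked for the same direction in both, and leaving out a library would leave 1. Depth limits Rpl3l, Rpl10l and Rpl39l, with 35 UMIs or fewer in all cells, and the myeloid class of 28 cells at 7 weeks.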
